A study of Mus musculus with 44 samples.

Results

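The comparison described here asks at which open chromatin regions of the early inner cell mass (ICM) the loss of Pou5f1, the gene of the transcription factor Oct4, and the loss of Sox2 had different effects. It is the difference of effects (Pou5f1-KO minus its Ctrl) minus (Sox2-KO minus its Ctrl), taken in 16 of the 44 ATAC-seq libraries of the study, 4 in each of 4 groups, and tested at all 152393 peaks of 200 bp. ATAC-seq marks accessible DNA by the insertions that Tn5 transposase makes in it. KO embryos of either line lacked the maternal and the zygotic copy of the gene: the maternal copy was a floxed allele removed by Zp3-Cre, which acts in the growing oocyte, and the paternal copy was a fluorescent knock-in allele (mKO2 at Pou5f1, EGFP at Sox2). Ctrl embryos lacked the maternal copy only, so every embryo compared here carried at least 1 inactive copy of the gene of its line. The labels give the strain as B6C3F1 for all groups. Embryos were collected at E2.5 from superovulated females and grown with 1 µM of the MEK inhibitor PD0325901 to the early blastocyst stage (E3.75). They were freed of trophectoderm by immunosurgery, and 20 to 40 ICMs were pooled per library. All groups thus shared the inhibitor, and the gene and the mouse line cannot be told apart. In such pools, fewer cells of a type and less accessible chromatin per cell cannot be told apart either.

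Values are rlog, the log2-scale transformation of DESeq2 that accounts for depth and shrinks weak peaks toward their mean and so understates their differences. The depth of each library is unknown here. Nothing in the labels says which libraries came from separate collections, so the p-values measure the spread between libraries. Correlation between replicates in early ICM was 0.762 to 0.874 across peaks, and the mean correlation with the own group was lowest, at 0.787 and 0.790, in the number 4 KO and Ctrl libraries of the Sox2 line, so the counts below are also given without them. At peaks near the start sites of 12 epiblast markers the mean rlog was 4.4 to 4.7 in the Pou5f1 Ctrl libraries, 3.4 to 4.1 in Pou5f1-KO, 3.8 to 4.2 in Sox2 Ctrl and 3.4 to 4.1 in Sox2-KO. Among them is the Sox2 peak, with group means of 4.09, 3.83, 2.36 and 0.81 in that order. It lies in the DNA that is floxed in the Sox2 line and lowers the means of that line. The 14 trophectoderm markers lay between 3.56 and 4.18 over the 4 groups. The mean over the 12 primitive endoderm markers was 3.17 ± 0.18 (SD, n = 4) in Pou5f1 Ctrl, 2.84 ± 0.24 in Pou5f1-KO, 3.16 ± 0.15 in Sox2 Ctrl and 3.17 ± 0.25 in Sox2-KO, and none of these 38 peaks was called in the difference of effects. Single start sites of each list were low in every group, with group means of at most 1.75 at Morc1, 1.66 at Krt7, 1.12 at Foxa2 and 1.15 at Col4a1. Whether a shift in cell types has a part in the results was not tested.

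Oct4 belongs to the POU family and binds an octamer, and Sox2 is an HMG-box protein that binds a short SOX word. In pluripotent cells they bind together at a composite OCT-SOX element, in which the SOX word and the octamer lie side by side, and both are needed for the epiblast. Oct4 is present from the early cleavage stages in all cells and later restricted to the ICM, while Sox2 rises in the ICM.

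The windows with the largest differences show what such regions look like in sequence. They are given on the plus strand of GRCm38.p6 from RefSeq, 5′ to 3′, with capitals for the OCT-SOX composite (CATTGT, any base, ATGCAAAT, with up to 3 mismatches in 14 letters), the octamer ATGCAAAT, the SOX word CATTGTT, the GATA word AGATAAG and the TEAD word CATTCCA, on either strand. The first 3 windows are those where Pou5f1-KO lost the most accessibility relative to Sox2-KO, and 1 of them holds an octamer and a SOX word that lie apart.
Tbx15, chr3:99263729-99263928: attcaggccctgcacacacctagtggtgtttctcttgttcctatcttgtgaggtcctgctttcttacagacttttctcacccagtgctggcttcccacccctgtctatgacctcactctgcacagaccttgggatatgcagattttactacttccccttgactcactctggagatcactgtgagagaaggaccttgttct
Jarid2, chr13:44668780-44668979: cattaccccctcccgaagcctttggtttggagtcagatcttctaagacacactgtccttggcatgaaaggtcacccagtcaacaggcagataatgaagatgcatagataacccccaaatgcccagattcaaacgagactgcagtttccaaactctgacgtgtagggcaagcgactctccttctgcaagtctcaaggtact
Macrod2, chr2:141417234-141417433: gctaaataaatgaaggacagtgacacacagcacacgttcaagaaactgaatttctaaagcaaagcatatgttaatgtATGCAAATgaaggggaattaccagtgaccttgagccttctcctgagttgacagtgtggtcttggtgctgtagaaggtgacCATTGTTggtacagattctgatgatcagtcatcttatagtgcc
The next 3 windows are those with the largest difference in the other direction, and the Plk2 window holds a GATA word on the minus strand.
Ptprd, chr4:77298895-77299094: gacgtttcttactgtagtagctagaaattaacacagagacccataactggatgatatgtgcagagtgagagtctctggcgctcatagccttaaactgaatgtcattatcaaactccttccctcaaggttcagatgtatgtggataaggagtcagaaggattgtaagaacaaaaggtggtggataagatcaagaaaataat
Plk2, chr13:110472927-110473126: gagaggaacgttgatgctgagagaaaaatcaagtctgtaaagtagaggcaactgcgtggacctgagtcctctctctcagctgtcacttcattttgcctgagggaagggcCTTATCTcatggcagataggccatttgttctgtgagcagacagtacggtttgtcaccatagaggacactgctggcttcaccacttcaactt
Galnt15, chr14:31978809-31979008: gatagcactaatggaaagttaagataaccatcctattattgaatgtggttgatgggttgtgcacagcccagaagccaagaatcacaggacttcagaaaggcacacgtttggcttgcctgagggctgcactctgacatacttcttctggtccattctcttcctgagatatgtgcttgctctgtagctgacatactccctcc
The last 3 windows were added after their values were seen, because each holds a composite word (the Asph window 2 of them). Accessibility at the Asph and Lats2 windows fell in Pou5f1-KO only by the calls below, and at the Utf1 enhancer it fell in both knockouts.
Asph, chr4:9737150-9737349: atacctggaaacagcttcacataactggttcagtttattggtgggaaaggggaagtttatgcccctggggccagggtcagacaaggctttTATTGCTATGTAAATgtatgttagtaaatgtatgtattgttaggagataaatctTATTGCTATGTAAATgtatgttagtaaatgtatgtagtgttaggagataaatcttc
Lats2, chr14:57732743-57732942: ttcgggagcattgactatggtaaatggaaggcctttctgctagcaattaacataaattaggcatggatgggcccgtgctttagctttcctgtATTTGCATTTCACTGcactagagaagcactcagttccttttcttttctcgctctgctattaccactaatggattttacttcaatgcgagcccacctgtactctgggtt
Utf1, chr7:139945620-139945819: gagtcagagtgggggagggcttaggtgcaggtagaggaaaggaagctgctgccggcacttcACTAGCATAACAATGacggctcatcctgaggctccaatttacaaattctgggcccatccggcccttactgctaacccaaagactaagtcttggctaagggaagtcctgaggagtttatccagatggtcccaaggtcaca

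Accessibility in early ICM responded more negatively to the loss of Pou5f1 than to the loss of Sox2 at 567 peaks (0.372% of the peaks tested) and more positive at 469 (0.308%), at an adjusted p under 0.05 from limma with Benjamini-Hochberg adjustment over all peaks. Every called difference was at least 1.05 on the log2 scale. Of the 567 peaks, 491 (86.6%) were decreased in Pou5f1-KO and not called in Sox2-KO, 34 were increased in Sox2-KO and not called in Pou5f1-KO, 9 were decreased in both, 3 moved in opposite directions and 30 were called in neither single effect. Of the 469, 336 (71.6%) were increased in Pou5f1-KO and not called in Sox2-KO, 86 (18.3%) were decreased in Sox2-KO and not called in Pou5f1-KO, 5 moved in opposite directions and 42 were called in neither. The single effects use the same libraries as the difference, so these classes describe which arm moved and are no further test. In all, 8273 peaks (5.43%) were decreased and 4196 increased in Pou5f1-KO (8.18% in either direction), and 2917 (1.91%) were decreased and 363 (0.238%) increased in Sox2-KO, so most peaks called in a single effect were not called in the difference.

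The number of calls differed between the alternatives. With only the 16 early ICM libraries in the fit, 247 and 165 of the peaks were called, and each of these 412 was also called with all 44 libraries. Without the number 4 libraries of the Sox2 line 471 and 384 peaks were called, of which 659 were shared. Leaving out Ctrl replicate 2 of the Pou5f1 line gave 326 and 222. Leaving out Pou5f1-KO replicate 4 gave 224 more positive peaks, and leaving out Sox2-KO replicate 1 gave 310. With the replicate number as a block 1476 and 1287 peaks were called, all 1036 peaks among them. With quantile normalization of the libraries the counts were 467 and 559, so which direction had more peaks depended on the scaling.

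**Figure D1:**
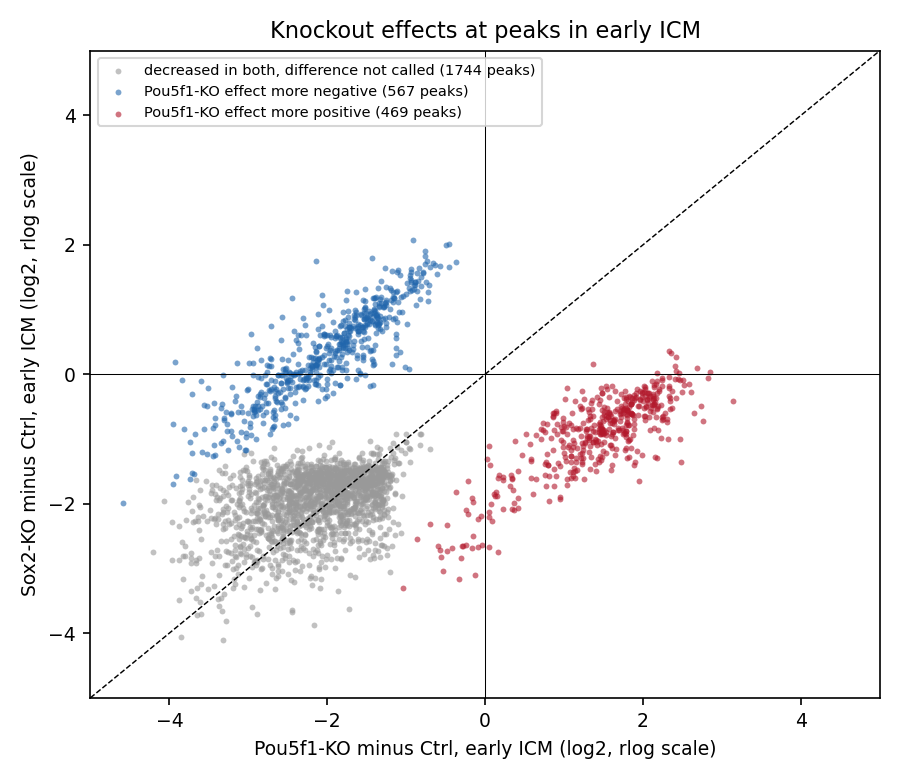
Pou5f1-KO effect (x axis) and Sox2-KO effect (y axis) in early ICM, as KO minus Ctrl of mean rlog on the log2 scale, 1 point per peak. Blue points are the 567 peaks with a more negative Pou5f1-KO effect, red points the 469 with a more positive one and grey points the 1744 peaks decreased in both with no call in the difference, which lie around the dashed line of equal effects.

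The largest loss was in an intron of Tbx15, a T-box transcription factor gene, 10069 bp downstream of the nearest coding start. Its rlog was 6.15, 5.41, 5.34 and 4.98 in the 4 Pou5f1 Ctrl libraries and 1.63, 1.35, 1.18 and 2.00 in Pou5f1-KO. It was 5.55, 5.73, 5.03 and 5.61 in Sox2 Ctrl and 5.57, 6.37, 5.24 and 5.46 in Sox2-KO. Only Pou5f1-KO was low, and its libraries did not overlap with those of the other 3 groups. The Pou5f1-KO effect was −3.93 (standard error 0.35), the Sox2-KO effect 0.18 (adjusted p = 0.91) and the difference −4.11 (standard error 0.49, adjusted p = 2.2e-08).

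The same picture held in an intron of Macrod2, which encodes an enzyme that removes ADP-ribose from proteins. Its rlog was 4.45 to 5.60 in Pou5f1 Ctrl, 1.05 to 1.48 in Pou5f1-KO, 4.73 to 6.01 in Sox2 Ctrl and 5.02 to 5.29 in Sox2-KO, and the difference was −3.75 (standard error 0.53, adjusted p = 4.4e-06). The window 67906 bp upstream of Asph, the gene of an aspartyl hydroxylase, holds 2 composite words with 3 mismatches each. Its rlog was 5.32, 5.60, 5.40 and 5.60 in Pou5f1 Ctrl and 1.66, 1.78, 1.21 and 2.91 in Pou5f1-KO, against 5.24 to 6.20 in Sox2 Ctrl and 5.15 to 6.04 in Sox2-KO. At this window accessibility fell without Oct4 by 3.59 on the log2 scale while the Sox2-KO effect was −0.10 (adjusted p = 0.96), and the effects differed by −3.50 (standard error 0.51, adjusted p = 6.9e-06). In an intron of Tnfrsf8, which encodes the receptor CD30, a window with an octamer read 3.80 to 4.89 in Pou5f1 Ctrl, 1.13 to 1.74 in Pou5f1-KO, 3.29 to 4.83 in Sox2 Ctrl and 4.07 to 5.16 in Sox2-KO. The difference there was −3.59 (standard error 0.58, adjusted p = 8.9e-05).

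Of the 8 peaks with the largest negative differences, the other 4 had a Sox2-KO effect above 0, called at the Jarid2 window only. A window in an intron of Gm20388, an annotated locus of 4435 kb that spans other genes (the nearest coding start is Rab4a), had a difference of −3.46 (adjusted p = 1e-04), with a Sox2-KO effect of 0.74 (adjusted p = 0.48). The window nearest Ccr7, a chemokine receptor gene, had −3.45 (adjusted p = 0.00052) and the one nearest Tmem17, a gene of a ciliary membrane protein, −3.62 (adjusted p = 0.00093). At Ccr7 and Tmem17 the Ctrl libraries of the lines stood apart by 1.64 (adjusted p = 0.039) and 1.62 (adjusted p = 0.069), higher in the Pou5f1 line, and that gap is part of the difference. The Jarid2 window belongs to the peaks with opposite effects, given below.

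**Figure D2:**
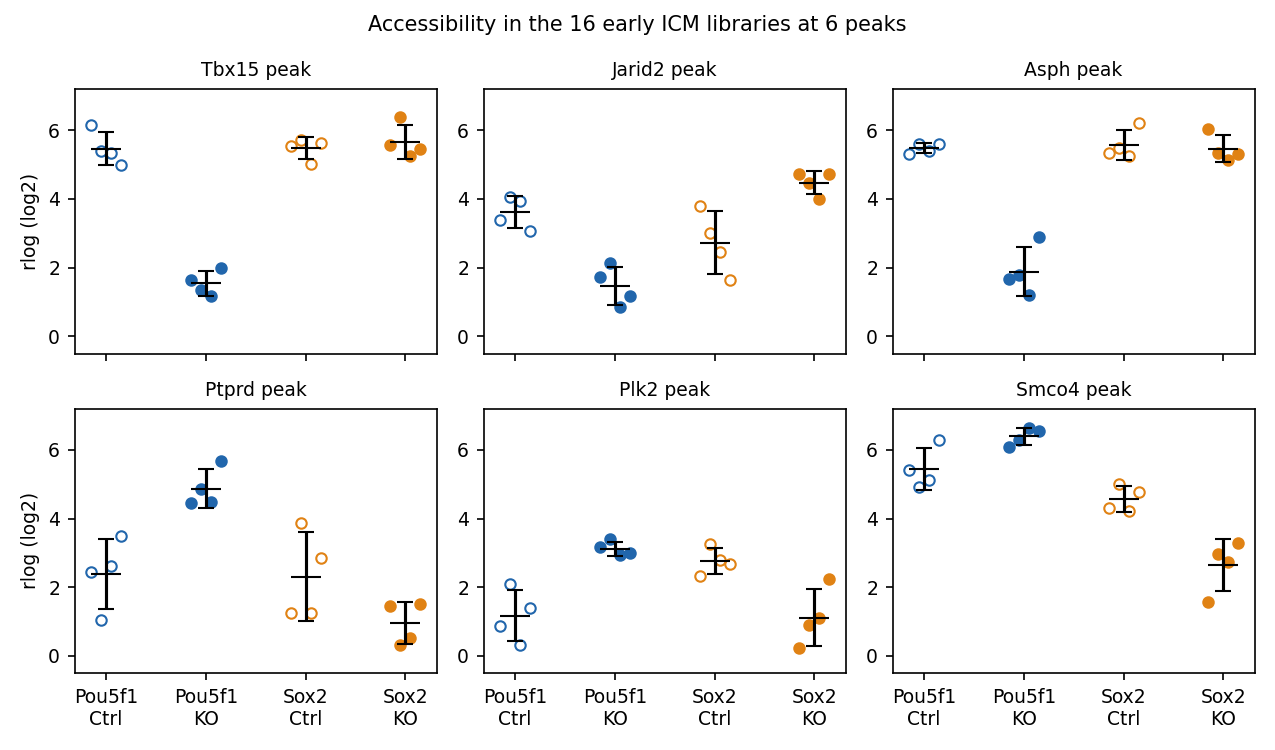
Values of rlog (y axis, log2) at 6 peaks in the 16 early ICM libraries. Blue marks the Pou5f1 line and orange the Sox2 line, open circles are Ctrl and filled circles KO libraries, and bars give the mean and SD of 4 libraries. At Tbx15 and Asph the Pou5f1-KO libraries, at most 2.91, lie below all others, while at Jarid2, Plk2 and Smco4 the knockouts moved in opposite directions.

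The largest difference in the other direction was in an intron of Ptprd, a receptor tyrosine phosphatase gene. Its rlog was 2.44, 1.04, 2.62 and 3.49 in Pou5f1 Ctrl, 4.45, 4.87, 4.49 and 5.68 in Pou5f1-KO, 1.24, 3.88, 1.25 and 2.85 in Sox2 Ctrl, and 1.45, 0.33, 0.52 and 1.51 in Sox2-KO. All 4 Pou5f1-KO libraries were above all others, and the 2 groups of the Sox2 line overlapped. The Pou5f1-KO effect was 2.48 (standard error 0.46), the Sox2-KO effect −1.35 (adjusted p = 0.11) and the difference 3.83 (standard error 0.65, adjusted p = 2e-04).

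At a window 50080 bp upstream of Galnt15, a gene of an enzyme that starts O-glycosylation, rlog was 0.31 to 2.16 in Pou5f1 Ctrl, 4.28 to 4.60 in Pou5f1-KO, 0.64 to 2.34 in Sox2 Ctrl and 0.28 to 2.07 in Sox2-KO. The effects differed by 3.55 (standard error 0.63, adjusted p = 0.00048). The window nearest Elac2, the gene of an enzyme that trims tRNA ends, went from 0.22 to 1.33 in Pou5f1 Ctrl up to 3.22 to 3.95 in Pou5f1-KO, and its difference was 3.48 (adjusted p = 0.00028). At both windows the Pou5f1-KO libraries were above all others. The windows at Fam110b (3.47, adjusted p = 0.00028), Rps20 (3.44, adjusted p = 0.00042) and Sik2 (3.47, adjusted p = 0.0013) each hold the SOX word, and the last of the 8, nearest the zinc finger gene Hivep2, had 3.31 (adjusted p = 0.0014). Sik2 encodes a salt-inducible kinase and Rps20 a ribosomal protein. At Sik2 the Ctrl libraries were 0.55 to 1.80 in the Pou5f1 line and 2.08 to 4.59 in the Sox2 line (adjusted p = 0.0012), so a gap between the Ctrl groups makes up a part of its difference.

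Peaks called as lost in Sox2-KO only were fewer and had a high level in Ctrl. The mean rlog over the 86 of them was 4.77 ± 0.21 (SD, n = 4) in Sox2 Ctrl and 2.83 ± 0.23 in Sox2-KO, and 4.85 ± 0.23 and 5.08 ± 0.25 in Pou5f1 Ctrl and KO. An example lies 5959 bp upstream of Ptpn11, which encodes the phosphatase SHP2 of the FGF pathway. Its rlog was 4.67, 4.79, 4.66 and 4.90 in Sox2 Ctrl and 2.74, 2.35, 1.99 and 4.04 in Sox2-KO, against 5.25 to 6.29 in Pou5f1 Ctrl and 5.43 to 5.88 in Pou5f1-KO. Every Sox2-KO library was below all libraries of the other groups. The difference was 1.82 (standard error 0.47, adjusted p = 0.038), and in late ICM it was 2.19 (adjusted p = 0.0061). In early ICM the call was lost with the 16 libraries alone (adjusted p = 0.082) and in 13 of 25 alternatives in all, with adjusted p-values up to 0.12.

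The 34 peaks gained in Sox2-KO only were weak. Their mean rlog was 1.32 ± 0.11 (SD, n = 4) in Sox2 Ctrl, 2.94 ± 0.07 in Sox2-KO, 2.14 ± 0.10 in Pou5f1 Ctrl and 1.34 ± 0.06 in Pou5f1-KO. At 32 of the 34 (94.1%, against 53.2% of all peaks) the Ctrl mean was higher in the Pou5f1 line, a gap that is part of the difference used to choose them. With the 16 libraries alone 6 were called, and in late ICM 1 was called more negative (2.94%, against 0.554% of all peaks).

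At 8 peaks both single effects were called and had opposite signs. Accessibility fell in Pou5f1-KO and rose in Sox2-KO at 3 of them and did the reverse at 5. The window 60594 bp upstream of Jarid2, which encodes a subunit of the Polycomb repressive complex PRC2, read 3.39, 4.05, 3.95 and 3.07 in Pou5f1 Ctrl, 1.72, 2.12, 0.85 and 1.18 in Pou5f1-KO, 3.80, 3.01, 2.46 and 1.65 in Sox2 Ctrl and 4.73, 4.46, 4.0 and 4.72 in Sox2-KO. The effects were −2.14 (adjusted p = 0.00032) and 1.75 (adjusted p = 0.013). A window nearest Cdk20, a cyclin-dependent kinase gene, had −1.44 and 1.79, and one nearest B4galt6, a glycosyltransferase gene, −1.32 and 1.43. The KO and Ctrl libraries did not overlap in either line at Jarid2, Cdk20 and B4galt6.

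The strongest of the 5 reverse cases by adjusted p was the window 28568 bp upstream of Smco4. Its rlog was 5.42, 4.91, 5.13 and 6.30 in Pou5f1 Ctrl, 6.09, 6.28, 6.63 and 6.56 in Pou5f1-KO, 4.32, 4.99, 4.21 and 4.77 in Sox2 Ctrl and 1.56, 2.98, 2.73 and 3.30 in Sox2-KO, with effects of 0.95 (adjusted p = 0.026) and −1.93 (adjusted p = 1.4e-06). The groups of the Sox2 line did not overlap, and 1 Ctrl library of the Pou5f1 line, at 6.30, lay within the range of the KO libraries. At the window nearest Plk2, a polo-like kinase gene, the effects were 1.95 and −1.64. The Ctrl mean of the Pou5f1 line minus that of the Sox2 line was −1.59 there (adjusted p = 0.059), and the difference in late ICM was 0.86 (adjusted p = 0.63). In an intronic window of Cdc25c, the phosphatase that triggers mitosis, 775 bp downstream of its start, the effects were 1.14 and −1.50 (with Ctrl 1.32 higher in the Pou5f1 line, adjusted p = 0.049). The effects were 1.41 and −1.50 near the Mediator subunit gene Med15, and 1.04 and −1.71 near the atypical cadherin gene Fat3. The adjusted p-values of these single effects ran from 1.4e-06 to 0.049. None of the 8 windows holds an octamer or a composite word with up to 3 mismatches.

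The called peaks lay away from start sites. The centre was more than 100 bp from the nearest start site at 96.1% of the 567 peaks and 99.6% of the 469, and at 92.2% of all peaks. Introns held 48.3% and 44.8%, and all peaks 47.4%. The median GC content was 49.5% and 45.5%, and 50.0% over all peaks.

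The words in the windows were not used to choose the peaks, and they differed between the classes. Of the 491 peaks lost in Pou5f1-KO only, 16.1% held a composite OCT-SOX word and 18.7% an octamer, against 3.11% and 2.39% of all peaks. Of the 1744 peaks decreased in both knockouts with no call in the difference, 36.5% held the composite word and 7.11% an octamer. With at most 2 mismatches the composite word was in 4.48% of the first group and 9.40% of the second, against 0.549% of all peaks. Of the 567 more negative peaks 14.6% held the composite word with up to 3 mismatches, and of the 247 also called with the 16 libraries alone 23.1%. An octamer with no composite word in the window was in 11.2% of the first group and 2.24% of the second, and in 1.84% of all peaks. The SOX word was in 2.85% and 7.28%, and in 3.04% of all. The composite word was thus more frequent in the windows that both knockouts closed and the octamer in those that Pou5f1-KO alone closed, as a description with no test. Windows without either word made up 72.7% of the first group.

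Among the 336 peaks gained in Pou5f1-KO only, 0.893% held the composite word and 0.595% an octamer. They held the GATA word in 21.1% and the TEAD word in 15.5%, against 7.71% and 7.09% of all peaks, and the SOX word in 8.04%. Other words were less frequent than in all peaks. The KLF word GGGNGTGG was in 12.5% and the EOMES word AGGTGTGA in 0.298%, against 20.6% and 2.62% of all peaks. GATA factors act in trophectoderm and primitive endoderm, and TEAD factors are the DNA-binding partners of YAP in the Hippo pathway. Among the 86 peaks lost in Sox2-KO only, the SOX word was in 9.30%, the composite in 3.49% and the octamer in 0 of 86. A match says only that the letters are in the window.

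**Figure D3:**
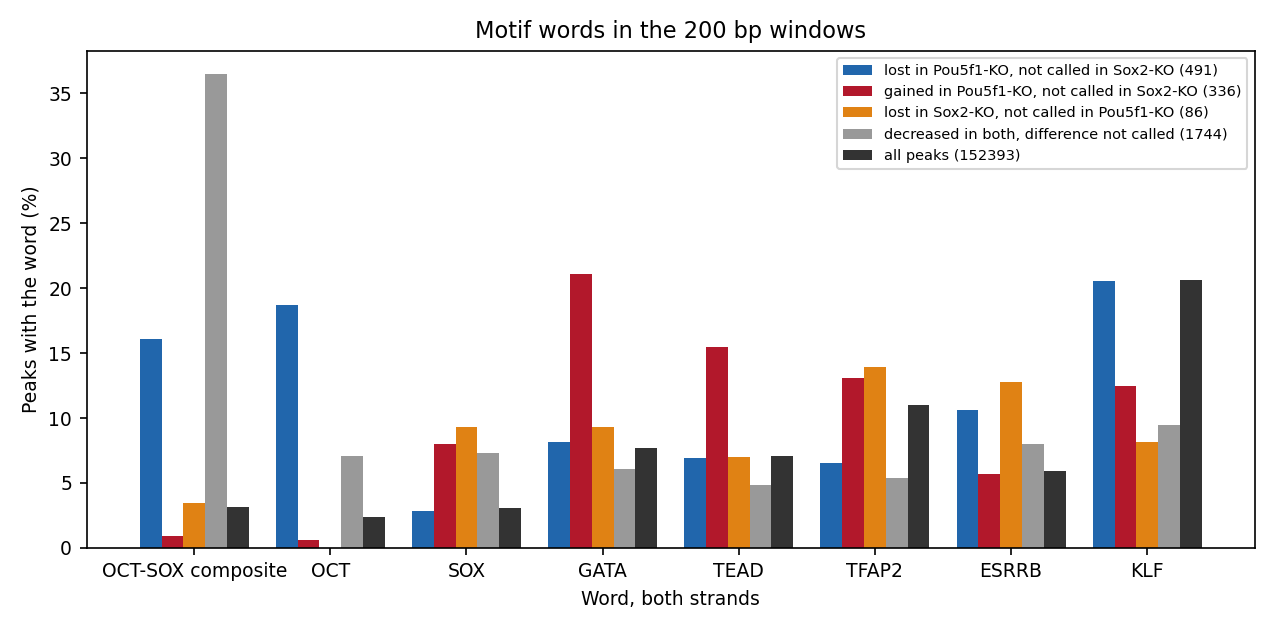
Share of 200 bp windows (y axis, percent, from 0) that hold each word on either strand, for 4 classes of peaks in early ICM and for all 152393 peaks. The composite word is most frequent among the peaks decreased in both knockouts (36.5%), the octamer among those lost in Pou5f1-KO only (18.7%) and the GATA word among those gained in Pou5f1-KO only (21.1%).

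Of the genes of 12 lists, peaks on a gene or within 10 kb were counted, and 0.68% of all peaks tested were called in either direction. For naive and core pluripotency factors, 6 of 419 peaks (1.43%) were called, all more negative in Pou5f1-KO, and the median difference was −0.29, against −0.07 over all peaks. They lie at Etv5 (−2.51, adjusted p = 0.022), Jarid2 (−2.39, adjusted p = 0.036), Trim28 (−2.35, adjusted p = 0.048), Nanog (−2.29, adjusted p = 0.036), Zfp57 (−2.04, adjusted p = 0.02) and Esrrb (−1.99, adjusted p = 0.009). At Trim28 the Ctrl groups differed by 1.43 (adjusted p = 0.094), with means of 3.83 and 2.40 in Ctrl and 2.24 and 3.16 in KO of the Pou5f1 and Sox2 lines, and the call was lost in 17 of 25 alternatives. Zfp57 and Trim28 encode partners that keep imprints methylated, and Esrrb an orphan nuclear receptor of naive pluripotency. At Esrrb rlog was 5.38 to 6.07 in Pou5f1 Ctrl, 3.43 to 3.88 in Pou5f1-KO, 4.17 to 5.73 in Sox2 Ctrl and 4.84 to 5.61 in Sox2-KO. At Zfp57 it was 5.0 to 5.3, 2.1 to 2.7, 4.1 to 5.6 and 3.5 to 4.8, in the same order. At both genes Pou5f1-KO alone lay apart from the other groups.

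The peak 8398 bp downstream of the Nanog start read 3.34 to 4.43 in Pou5f1 Ctrl, 1.72 to 3.12 in Pou5f1-KO, 1.98 to 3.47 in Sox2 Ctrl and 2.35 to 4.11 in Sox2-KO. Its Ctrl groups differed by 1.16 (adjusted p = 0.18). With the 16 libraries alone only the Esrrb peak of the 6 was called (adjusted p = 0.029).

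For regulators of trophectoderm 3 of 488 peaks were more negative and 1 more positive. Of the 488 peaks, 267 were counted at Fgfr2, whose gene model spans other genes. At Cdx2, 2 of 10 peaks were called, and both fell in Pou5f1-KO. The window 6220 bp upstream had 4.19 to 5.67 in Pou5f1 Ctrl, 2.84 to 3.65 in Pou5f1-KO, 5.26 to 5.53 in Sox2 Ctrl and 5.29 to 6.10 in Sox2-KO. Its difference was −2.23 (adjusted p = 0.0013), and the intronic one had −2.57 (adjusted p = 0.022). The peak nearest the Cdx2 start had −0.16 (adjusted p = 0.93). Cdx2 is a homeobox factor of trophectoderm. The 2 other called windows lie in introns of this Fgfr2 gene model, and their nearest coding starts are Htra1 and Gpr26. The first had 3.06 (adjusted p = 0.00091), with a gain in Pou5f1-KO. The second had −2.12 (adjusted p = 0.033), with a gain in Sox2-KO from a mean rlog of −0.43 to 1.23, and its Sox2-KO libraries ran from −0.66 to 1.97.

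For DNA methylation and chromatin regulators 4 of 372 peaks were called, all more negative. They are 2 at Tet1 (−2.41, adjusted p = 0.011, and −2.30, adjusted p = 0.015), 1 at Tet2 (−2.24, adjusted p = 0.043) and 1 near Tdg (−2.20, adjusted p = 0.027), which encode enzymes of active DNA demethylation. At the Tet2 window the Ctrl libraries stood 1.53 higher in the Pou5f1 line (adjusted p = 0.046), and in late ICM accessibility fell in both knockouts (−2.27 and −1.81, adjusted p = 1.7e-05 and 0.0014), with a difference of −0.46 (adjusted p = 0.82). The peak near Tdg lies within an intron of Glt8d2, 164 bp downstream of the Glt8d2 start, which is the nearest coding start. It holds an octamer and was also called in late ICM (−2.09, adjusted p = 0.034). At the upstream Tet1 window, in an intron 2666 bp from the nearest start, rlog was 4.06 to 4.45 in Pou5f1 Ctrl, 1.34 to 3.16 in Pou5f1-KO, 3.08 to 5.08 in Sox2 Ctrl and 3.67 to 5.50 in Sox2-KO.

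For the SOX and POU family 3 of 193 peaks were called, all more negative. They lie at Pou2f3 (−2.45, adjusted p = 0.0068, and −2.42, adjusted p = 0.03), which encodes another octamer-binding POU protein, and at Sox1 (−2.54, adjusted p = 0.025), and each holds an octamer. The first Pou2f3 peak was at 4.21 to 5.02 in Pou5f1 Ctrl, 1.06 to 1.99 in Pou5f1-KO, 4.32 to 5.38 in Sox2 Ctrl and 4.25 to 4.64 in Sox2-KO, and its Pou5f1-KO effect was already called in morula (−1.91, adjusted p = 0.021). For formative and primed genes 2 of 112 were called, at Foxd3 (−2.50, adjusted p = 0.026) and again Sox1. At Foxd3, the gene of a forkhead repressor, the Ctrl groups differed by 1.74 (adjusted p = 0.027).

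In the Hippo pathway 2 of 423 peaks were more negative and 2 more positive. The Lats2 window, shown above, holds a composite word with 2 mismatches whose OCT side is an exact octamer. Lats2 encodes a kinase that keeps YAP out of the nucleus. The window read 2.84 to 4.55 in Pou5f1 Ctrl, 0.87 to 1.76 in Pou5f1-KO, 3.71 to 4.61 in Sox2 Ctrl and 2.87 to 4.47 in Sox2-KO, a difference of −2.34 (adjusted p = 0.028). The others were at Wwtr1 (−1.83, adjusted p = 0.0031), which encodes TAZ, at a UTR of Wwc2 that is nearest the start of Cldn22 (1.93, adjusted p = 0.012, with a fall in Sox2-KO) and at Vgll4 (1.39, adjusted p = 0.022), a TEAD cofactor gene. In the Wnt pathway 3 of 291 were more negative, at Lrp5, Tcf7l1 and Tcf7l2 (−2.08, −2.35 and −2.12), and 2 more positive, within 10 kb of Tcf7l1 and at Lrp6 (2.96 and 2.39), with adjusted p-values of 0.0079 to 0.044 in limma's test. At the Lrp6 window the Ctrl mean of the Pou5f1 line minus that of the Sox2 line was −1.63 (adjusted p = 0.049), and the difference in late ICM was −0.07 (adjusted p = 0.98). At the more negative Tcf7l1 peak and at Tcf7l2 the Ctrl groups differed by 1.37 and 1.09 (adjusted p = 0.11 and 0.17), more than the KO groups did.

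Pyruvate and glutathione metabolism had 3 of 212, all more negative, with 2 upstream of Ldha (−2.76 and −2.59), the gene of a lactate dehydrogenase subunit, and 1 at the hexokinase gene Hk2 (−2.33). The Nodal and BMP list had 2 of 210, both at Pcsk6 (−1.58 and −1.05), the gene of a convertase that processes Nodal. The LIF list had 1 of 221, upstream of Il6 (−2.30). The FGF and ERK list had Sos2 (−2.17) and Ptpn11 of 332, and the primitive endoderm list had 1 of 265, near Hnf4a (−1.92). The adjusted p-values of the peaks named for these 5 lists ran from 0.009 to 0.049 in limma's test. With the 16 early ICM libraries alone only the 2 Ldha peaks of these 9 were called (adjusted p = 0.042 at both), and the other peaks had 0.052 (Sos2) to 0.15 (Hnf4a). Of the 36 distinct peaks called for the 12 lists, 12 were called with the 16 libraries, at Esrrb, Cdx2 (the upstream window), Fgfr2 (the window gained in Pou5f1-KO), Wwtr1, Wwc2, Tcf7l1 (the more positive peak), Lrp5, Tet1 (the first), Tdg, Pou2f3 (the first) and Ldha. The shares called ran from 0.377% to 1.79% over the 12 lists, on 1 to 6 peaks each, beside 0.68% of all peaks, and the lists overlap in genes and were not tested.

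None of the 9 enhancers that the study lists for pluripotency genes was called in the difference of effects. At the Utf1 enhancer, shown above with its composite word, rlog was 4.85 to 5.41 in Pou5f1 Ctrl, 1.33 to 1.73 in Pou5f1-KO, 4.98 to 5.27 in Sox2 Ctrl and 2.30 to 4.08 in Sox2-KO. It fell in both knockouts, with effects of −3.72 and −2.12, and the difference of −1.60 (standard error 0.54) had an adjusted p of 0.14. At Pecam1 the effects were −3.11 and −1.94 (difference −1.17, adjusted p = 0.41). At the Klf4 enhancer the fall was called in Pou5f1-KO (−1.94, adjusted p = 7.1e-06) and not in Sox2-KO (−0.30, adjusted p = 0.81), with a difference of −1.63 (adjusted p = 0.069) that passed in late ICM (−1.88, adjusted p = 0.022). With the replicate number as a block the early differences at the Klf4 enhancer and the proximal Nanog enhancer were called, with adjusted p-values of 0.023 and 0.038.

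The proximal Nanog enhancer had −1.21 and 0.32 (difference −1.53, adjusted p = 0.091) and the distal one 0.14 and 0.14 (difference 0.00, standard error 0.25). The Klf2 enhancer had −0.58 and −1.42 (difference 0.83, adjusted p = 0.56), the Prdm14 one −1.53 and −0.96 (adjusted p = 0.79), Sox2 SRR2 −1.97 and −1.27 (adjusted p = 0.71) and Pou5f1 CR4 −0.53 and −0.17 (adjusted p = 0.69). These values do not show that the 2 knockouts act alike there: the standard errors of the difference ran from 0.25 to 0.64. Within 2 kb of the targeted genes none of the 8 peaks was called. The window 479 bp upstream of the Sox2 start had 2.74, 2.11, 2.62 and 1.96 in Sox2 Ctrl and 0.79, 0.54, 0.74 and 1.19 in Sox2-KO, against 3.65 to 4.46 in Pou5f1 Ctrl and 3.47 to 4.39 in Pou5f1-KO. It was lowest in Sox2-KO, with an effect of −1.54 (adjusted p = 0.013), and the Ctrl groups differed by 1.73 (adjusted p = 0.012), while the difference of effects was 1.28 (adjusted p = 0.31). The floxed part of Sox2 runs from further upstream of the start to the UTR behind the coding exon, so it includes this window. The maternal copy of this DNA was removed in both groups of the Sox2 line. Missing DNA copies and less accessible chromatin cannot be told apart here. At the coding exon of Sox2 the values were 1.95 to 3.81 in Sox2 Ctrl and 1.71 to 2.77 in Sox2-KO, groups that overlapped, with an effect of −0.97 (adjusted p = 0.37). At the coding exon of Pou5f1 they were 1.42 to 3.01 in Pou5f1 Ctrl and 1.11 to 3.03 in Pou5f1-KO, with an effect of −0.47 (adjusted p = 0.6). The study removed the Pou5f1 exons after the first, where this window lies, and the Sox2 coding exon is in the floxed DNA. At both windows KO and Ctrl libraries overlapped, so these values do not by themselves bear out the KO labels. The study reports loss of both proteins in KO embryos by immunostaining. Why the groups overlapped was not tested. Within 1 Mb 2 of 348 peaks at Pou5f1 and 2 of 116 at Sox2 were called.

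The late ICM (E4.5) gives the same contrast in 16 other libraries, which took part in setting the variance of each peak in the fit that called these peaks. Of the 567 peaks 535 (94.4%) were again negative and of the 469 peaks 437 (93.2%) again positive, where 52.3% of all peaks were negative in late ICM. The medians were −1.48 and 1.13, against −2.34 and 2.35 in early ICM, where the peaks were chosen for their size. In late ICM 192 of the 567 were called more negative (33.9%, against 0.554% of all peaks) and 67 of the 469 more positive (14.3%, against 0.351%), and none was called in the opposite direction at an adjusted p under 0.05. Of the peaks called with the 16 early ICM libraries alone, 243 of 247 (98.4%) were negative and 160 of 165 (97.0%) positive in late ICM, and 135 (54.7%) and 39 (23.6%) were called there in the same direction. At an unadjusted p under 0.05 the change of the difference from early to late ICM passed at 4500 and 3533 of all peaks, and after adjustment in limma at 0, so no peak was shown to differ between the stages.

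Peaks called at both stages were ranked by the smaller of the 2 absolute values, and the first 6 more negative ones are Asph (−3.50 and −3.36), a window 1345 bp upstream of Tmem39a (−3.30 and −3.36), Macrod2 (−3.75 and −3.28), Cdk20 (−3.23 and −3.19), an intron of Nckap5 (−3.18 and −3.25) and a window 7864 bp upstream of Smarcad1 (−3.41 and −3.18), which encodes a chromatin remodeller. The Tbx15 window (−4.11 and −2.998, adjusted p = 9.1e-05 in late ICM) and the Tnfrsf8 window (−3.59 and −3.03, adjusted p = 0.0012) were also called at both stages and rank below them by that measure. In the other direction the first 6 are windows nearest Cog6 (3.00 and 3.58), Ube2cbp (2.89 and 3.20), Smco4 (2.88 and 3.22), Mettl21e (2.84 and 3.00), Prss2 (2.70 and 3.52) and Tbc1d9 (3.22 and 2.69). At Smarcad1 rlog in early ICM was 5.49 to 5.90 in Pou5f1 Ctrl, 1.44 to 2.95 in Pou5f1-KO, 5.42 to 6.55 in Sox2 Ctrl and 5.14 to 5.88 in Sox2-KO. At Mettl21e rlog was 2.67 to 4.71 in Sox2 Ctrl and 1.24 to 3.43 in Sox2-KO, an effect of −1.89 (adjusted p = 0.0013) between groups that overlapped. In the Pou5f1 line it was 3.41 to 4.89 in Ctrl and 4.22 to 5.74 in KO, an effect of 0.95 (adjusted p = 0.15).

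**Figure D4:**
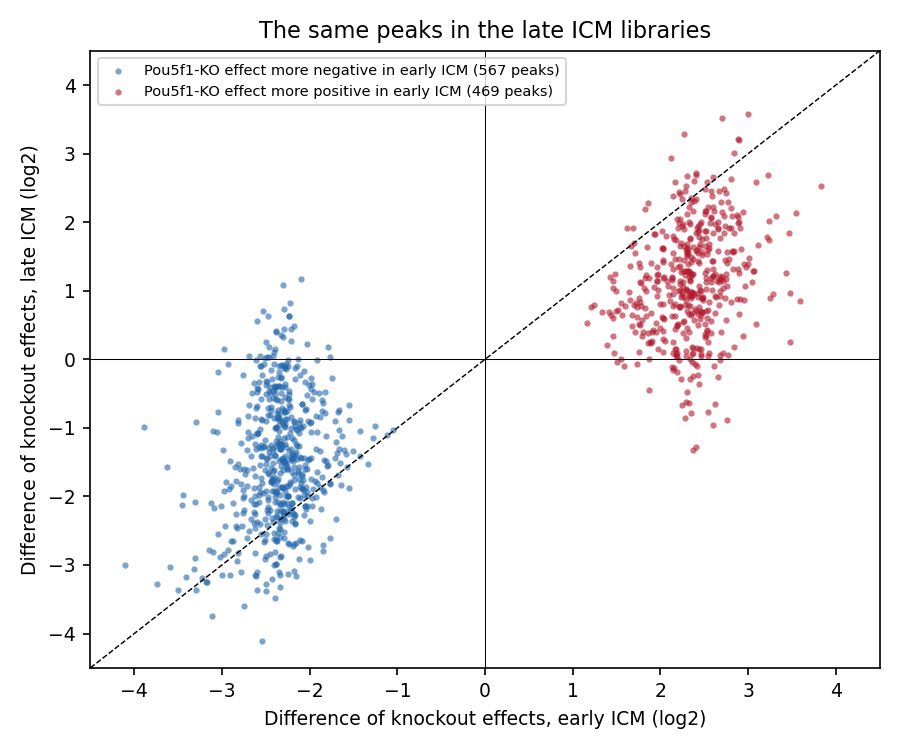
Difference of knockout effects in early ICM (x axis) and in late ICM (y axis), both on the log2 scale, at the 1036 called peaks, with a dashed line of equal values. Most blue points (535 of 567) lie below 0 and most red points (437 of 469) above 0 in late ICM, closer to 0 than in early ICM.

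The morula libraries, which exist for the Pou5f1 line only, hold the earlier history of these peaks. At the 491 peaks lost in Pou5f1-KO only, mean rlog in Ctrl was 3.27 ± 0.04 (SD, n = 3) in morula, 3.20 ± 0.16 in late morula, 4.34 ± 0.05 (SD, n = 4) in early ICM and 4.22 ± 0.10 at the late stage. For Pou5f1-KO the values were 2.59 ± 0.43, 2.28 ± 0.03, 2.19 ± 0.06 and 2.43 ± 0.15. Of these peaks 35 (7.13%) were called decreased in morula and 114 (23.2%) in late morula, against 0.185% and 0.539% of all peaks. Of the 1744 peaks decreased in both, 43 (2.47%) and 108 (6.19%) were, and their Ctrl level went from 2.18 ± 0.09 in morula to 3.83 ± 0.28 in early ICM. The labels list the inhibitor for the ICMs and not for the morulae, so stage and treatment cannot be told apart.

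The 336 peaks gained in Pou5f1-KO only were at 2.96 ± 0.12 in Ctrl and 3.03 ± 0.04 in KO morula (SD, n = 3), and at 2.40 ± 0.22 and 4.16 ± 0.24 in early ICM (SD, n = 4). None of them was called increased in morula (0.0518% of all peaks), and 3 were in late morula (0.108% of all). In late ICM they were at 2.38 ± 0.11 in Pou5f1 Ctrl, 3.72 ± 0.07 in Pou5f1-KO, 2.29 ± 0.08 in Sox2 Ctrl and 2.51 ± 0.10 in Sox2-KO. The 86 peaks lost in Sox2-KO only stood in late ICM at 4.59 ± 0.06 in Sox2 Ctrl and 3.23 ± 0.25 in Sox2-KO, with 4.77 ± 0.18 and 4.58 ± 0.14 in the Pou5f1 line. Of them 21 (24.4%) were called in late ICM.

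**Figure D5:**
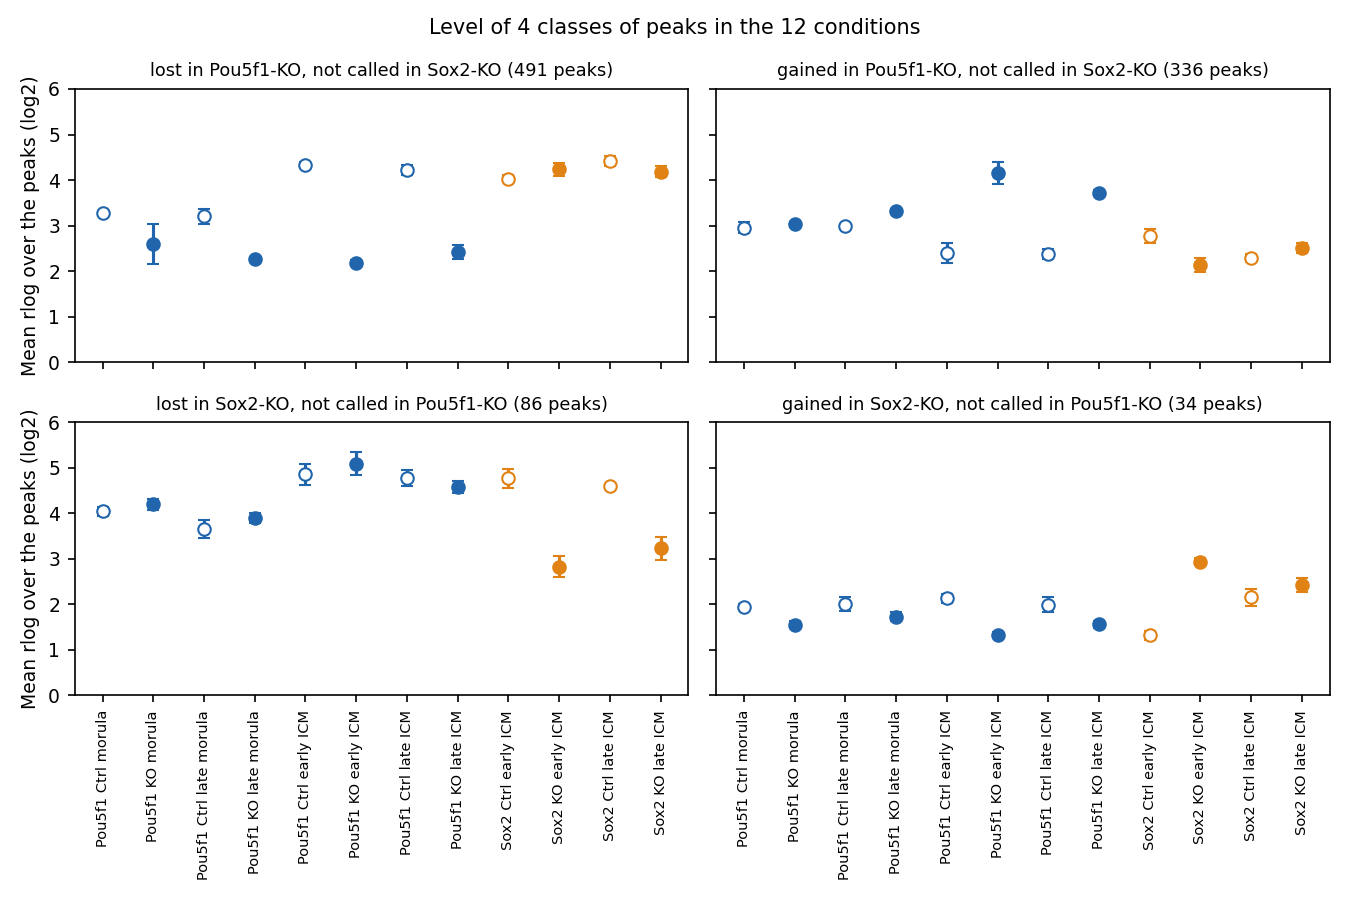
Mean rlog (y axis, log2) over 4 classes of peaks in the 12 conditions of the study (x axis). Points are means over libraries and bars SDs (n = 3 for morulae, 4 for ICMs), blue is the Pou5f1 line and orange the Sox2 line, and open circles are Ctrl. The classes were chosen in early ICM, and in late ICM each class, apart from the peaks gained in Sox2-KO, keeps a gap between KO and Ctrl in the same line of over 1 on the log2 scale.

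Some called peaks had another called peak nearby. Of the 1036, 96 had another within 5 kb in the same direction and 0 in the other direction. Within 10 kb the counts were 123 and 2. No such share was computed over all peaks, so these counts and those per gene below are a description only. Of genes with 3 or more called peaks on them or within 10 kb, Dglucy (5 of 20 peaks, −2.58 to −2.33), Tnfrsf8 (5 of 13, −3.59 to −2.34), Deptor (4 of 50, −2.50 to −2.11), Atxn7l1 (3 of 35) and Nckap5 (3 of 14, −3.18 to −2.34) had only more negative ones. Deptor encodes an inhibitor of mTOR, and all 4 of its peaks were also called in late ICM and 3 with the 16 early libraries alone. In late ICM 2 of 5 were called at Dglucy, 4 of 5 at Tnfrsf8, 1 of 3 at Atxn7l1 and 3 of 3 at Nckap5. With the 16 early libraries alone 4, 3, 2 and 2 were called there. Cgnl1 (3 of 31, 1.78 to 2.44), a tight junction gene, Dapk1 (3 of 29, 1.91 to 3.05), a kinase gene of cell death, and Fndc3b (3 of 40, 1.79 to 2.24) had only more positive ones. With the 16 libraries alone 1 of the 3 was called at Cgnl1, 1 at Dapk1 and 0 at Fndc3b, and in late ICM 2, 1 and 0. Gm20388 had 5 more negative ones of 542, of which 3 were called with the 16 libraries alone and 1 in late ICM. Per chromosome 0.455% (19) to 0.972% (X) of the peaks were called. The called peaks nearest the threshold, at Irf9 (−2.21, with a Ctrl gap of 1.67, adjusted p = 0.028), Sln (−2.06) and Atp6ap2 (−2.50), stand beside those just outside it at Adora1 (−2.05), Rnf220 (−2.13) and Ndn (1.46).

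The difference of effects also holds the gap between the Ctrl groups of the lines, which was called higher in the Pou5f1 line at 831 peaks (0.545%) and lower at 539 (0.354%). Among the 567 peaks it was called higher in the Pou5f1 line at 30 (5.29%) and lower at 2 (0.353%). Among the 469 it was called lower at 13 (2.77%) and higher at 7 (1.49%). A higher Ctrl in the Pou5f1 line makes the difference more negative and a lower one more positive, so the gap is part of what chose these peaks. At 64 (11.3%) of the 567 and 34 (7.25%) of the 469 the gap between the Ctrl means was larger than that between the KO means, as at 42.5% of all peaks. The KO groups compared directly were called at 501 and 430 of the peaks in the direction of the difference, where 5.07% and 5.16% of all peaks were called. The gap between the KO groups is itself a term of the difference and comes from the same libraries, so these counts are a description only.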

How the data were processed

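ATAC-seq was made on pools of 20 to 40 mouse morulae or ICMs, 44 libraries in 12 conditions. The authors trimmed reads, aligned them to mm10 with Bowtie2, removed duplicates with Picard, called peaks with MACS2, and counted Tn5 insertions in 200 bp windows. They deposited rlog values on the log2 scale from DESeq2 for 152393 peaks, and the insertion counts and the depth were not used here. The rlog range was −1.65 to 10.03, and no 2 libraries were identical.

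Groups came from the sample labels. limma 3.58.1 in R 4.3.3 fitted 1 mean per condition over all 44 libraries, with no filter, and tested each contrast with a trended empirical Bayes variance (32 residual and 84.2 prior degrees of freedom). Benjamini-Hochberg adjustment ran over all peaks and a call is an adjusted p under 0.05. Peaks were placed on GENCODE vM21 genes and words were searched in the RefSeq sequence of GRCm38.p6. Named peaks are the 8 largest called differences in each direction, called peaks within 10 kb of a listed gene, the 9 enhancers and the targeted genes, the peaks with opposite effects, the first 6 in each direction called at both stages, ranked by the smaller absolute value, and those nearest the threshold. The members and lists were chosen with earlier results of these data known. Not every gene with several called peaks is reported here.

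The alternatives were the 16 libraries of a stage alone, library weights, a filter at the median rlog, quantile normalization, a minimum log2 difference of 1, a replicate block, and each library left out. The variance of each peak alone, the block with 16 libraries, and the number 4 libraries left out were added after seeing the data. Same-numbered Ctrl and KO libraries deviated together in the Pou5f1 line in early ICM (correlation of deviations 0.121 to 0.162 in 4 of 4 pairs) and in 3 of 4 pairs of the Sox2 line (0.104 to 0.293, and 0.0859 in the other pair, under the limit of 0.1), so the numbers pair the first line by this check and not the second.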

Additional observations from a re-analysis of the deposited data

Results flagged for a closer look

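In 21 of 348 groups of 4 libraries at the named peaks, 1 library lay apart from the other 3 by Dixon's test, where chance gives about 1 in 20. Sox2-KO replicate 1 was such a library at 4 peaks: at Ccr7 it had an rlog of 3.54 (others 2.43 to 2.58), at the Fgfr2 window gained in Sox2-KO −0.66 (others 1.62 to 1.97), at Ldha 1.85 (others 2.97 to 3.08) and at Cdk20 5.26 (others 3.83 to 4.06). Sox2-KO replicate 2 had 2.26 at Tet2 (others 3.32 to 3.45) and 1.74 at Cog6 (others 1.04 to 1.14).

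In Pou5f1-KO, replicate 1 had 0.14 at the same Fgfr2 window and 4.22 at Mettl21e, replicate 2 had 3.35 at Cog6, replicate 3 had 2.29 at the Cdx2 intron (others 0.84 to 1.05) and replicate 4 had 3.81 at the peak 2941 bp downstream of the Sox2 start. In Pou5f1 Ctrl, replicate 1 had 3.43 at Tet2 (others 4.56 to 4.59), replicate 2 had 7.68 at Pcsk6 and 3.07 at the Pou5f1 intron, and replicate 3 had 2.67 at Med15 (others 1.09 to 1.32). In Sox2 Ctrl, replicate 1 had 3.81 at Fat3, replicate 2 had 5.52 at Pecam1 and 1.60 at the Sox2 peak, and replicate 3 had 5.13 at the other Pcsk6 peak, 2.54 at Foxd3 and 3.45 at Sln.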

How the results depend on the processing

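The depth of the libraries is unknown here, and what it limits was not tested. Beside 567 negative and 469 positive peaks, the 16 libraries alone gave 247 and 165, with 2613 gains in Pou5f1-KO, 110 gains in Sox2-KO, 186 and 295 peaks between the Ctrl lines and 1461 negative peaks in late ICM. Library weights gave 193 gains in Sox2-KO and 1917 and 1471 in late ICM. At or above the median rlog, which removes peaks, the counts were 4663 and 2755 for Pou5f1-KO, 1599 and 216 for Sox2-KO, and 318 and 543 for the Ctrl lines. Quantile normalization gave 544 negative peaks in late ICM. The replicate block gave 1476 and 1287, 911 gains in Sox2-KO, and 1870 and 1391 in late ICM, and the block with the 16 libraries gave 1330 and 1060, with 633 gains in Sox2-KO. The block over all libraries lost no call among the 69 named called peaks, and of the 18 named uncalled peaks it called 5, the Klf4 and proximal Nanog enhancers and the 3 just outside the threshold at Adora1, Rnf220 and Ndn. The variance of each peak alone gave 299 positive peaks, and 350 in late ICM. Without the number 4 libraries of the Sox2 line there were 199 gains in Sox2-KO. The cause of these changes was not tested.

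Leaving out 1 library at a time gave 326 to 695 negative and 222 to 577 positive peaks, 6397 to 7472 and 2461 to 3950 for Pou5f1-KO, 2118 to 2806 and 183 to 491 for Sox2-KO, 202 to 606 and 351 to 967 between the Ctrl lines, and 483 to 936 and 287 to 672 in late ICM. Gains in Pou5f1-KO numbered 2461 without its Ctrl replicate 2 and 2634 without KO replicate 4, and gains in Sox2-KO 214, 229 and 183 without KO replicates 1, 2 and 3. Between the Ctrl lines, leaving out Pou5f1 Ctrl replicates 1, 2 or 3 or Sox2 Ctrl replicates 2 or 3 gave 202 to 333 and 351 to 509. In late ICM the lowest values came without Ctrl replicate 4 of the Pou5f1 line and without Sox2-KO replicate 2, and 344 positive peaks were called without Ctrl replicate 3 of the Pou5f1 line. Of the 69 named called peaks, 27 lost the call with the 16 libraries, 14 with library weights, 10 with quantile normalization, 14 without the number 4 libraries and 23 with the variance of each peak alone, and over the single libraries left out 859 calls were kept and 245 lost.

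With 1 kb in place of 100 bp, 85.9% and 94.9% of the called peaks were distal, and with 2 mismatches 4.06% and 0% held the composite word, against 0.549% of all peaks. Within 50 kb, 47 and 14 called peaks were summed over the lists. Signs changed only at 3 uncalled peaks near 0. At the distal Nanog enhancer (0.00) the difference was −0.023 with library weights, −0.12 with quantile normalization, −0.10 without the number 4 libraries and −0.0588 to 0.113 with 1 library left out. At the intronic Pou5f1 peak (−0.01) it was 0.28, 0.087, 0.48 and −0.35 to 0.59, and at the Pou5f1 coding exon (0.29) −0.10 to 0.59 with 1 library left out.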
